A study of Mus musculus with 24 samples.

Results

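The genes described here are 5 keratins, Krt7, Krt8, Krt18, Krt19 and Krt23, and 4 further genes of bile duct epithelium and the ductular reaction, Sox9, Epcam, Cftr and Cldn4. These 9 genes, of 78298 gene IDs counted, were chosen by name, with their levels in control and model livers and their wide spread over the model mice already known. Values of that contrast and of that spread are therefore given as a description with no test. The number of these genes called is shown only beside the background and supports nothing. Permutation p-values are printed for correlations over the model mice, and for pairs among these genes they too are only descriptive. The study sequenced polyadenylated RNA from the livers of 24 mice, 1 library per mouse. One group is 6 normal control mice and the other 18 mice of a steatohepatitis model, a fatty and inflamed liver. The labels name the tissue and the group of each mouse and give no strain, genotype, diet, duration, age, sex or harvest time. Libraries held 31600129 to 58413267 counts, and mice are numbered here as in the labels.

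Keratins are the intermediate filament proteins of epithelial cells and assemble as pairs of a type I and a type II chain. Hepatocytes express the type II keratin Krt8 and its type I partner Krt18, while the epithelial cells of bile ducts, the cholangiocytes, also express Krt7 and Krt19. In chronic liver injury duct-like cells can multiply at the edge of the portal tracts, which is called a ductular reaction, and in steatohepatitis hepatocyte keratins can collect in inclusions called Mallory-Denk bodies. Sox9 is a transcription factor of the duct lineage. Epcam is an adhesion protein of simple epithelia, Cftr is the apical chloride channel through which ducts secrete fluid, and Cldn4 is a claudin of their tight junctions. In RNA from whole tissue a smaller number of cells of a type and less RNA per cell cannot be told apart.

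The 3 genes Krt8, Krt18 and Krt23 lay above every control in all 18 model mice, whereas Krt7, Krt19, Sox9, Epcam, Cftr and Cldn4 lay both above and below the controls. All 9 genes passed the filter on low counts. The fit covered 17456 genes, with edgeR's quasi-likelihood test and a Benjamini-Hochberg threshold of 0.05. It called 4 of the 9, all as higher in the model: Krt8, Krt18, Krt23 and Cftr. Over all genes 60.0% were called, 31.2% as higher and 28.8% as lower. Every model mouse lay above every control for 9.67% of genes and below for 6.02%. Since the genes were chosen on this contrast, nothing is read from their count. Scaling by library totals alone shifts the middle of all genes from 0.01 to 0.34 log2 units, and 6 of the 9 were then called.

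**Figure D1:**
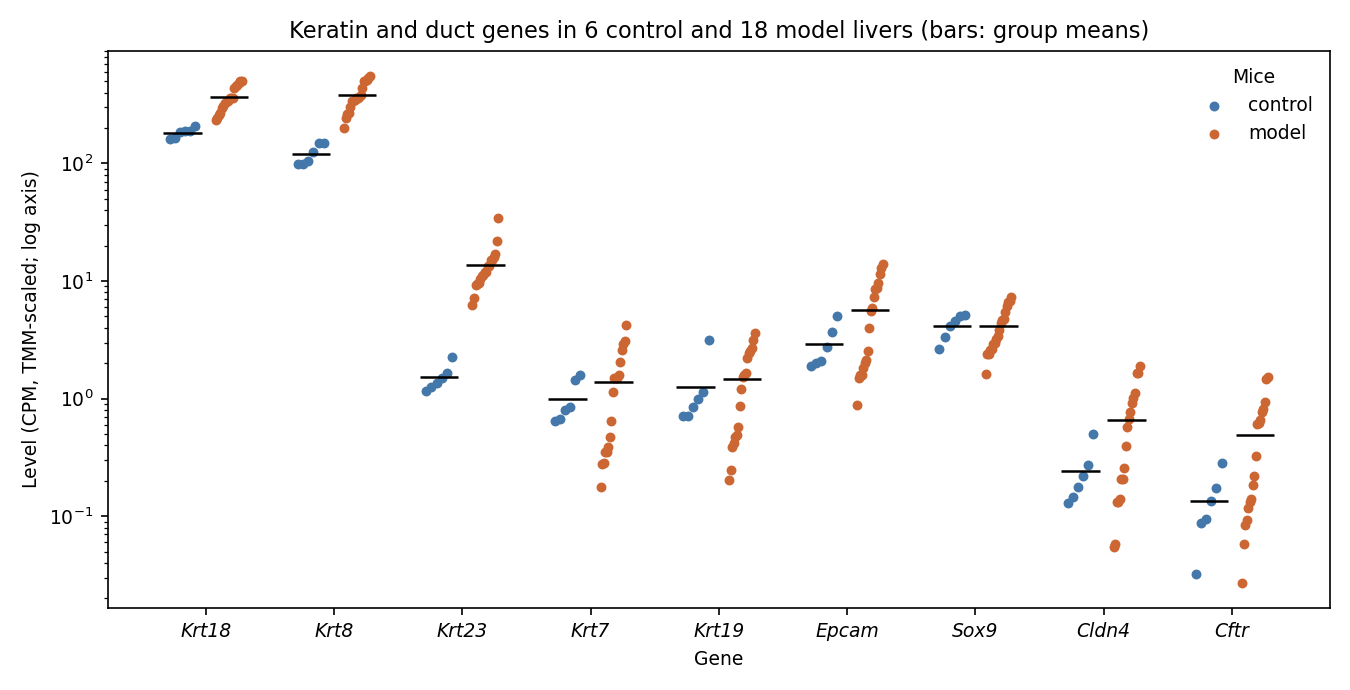
Level of each gene (CPM scaled by TMM factors, log axis) in every mouse, 6 controls in blue and 18 model mice in orange, with a bar at each group mean. Krt18, Krt8 and Krt23 separate the groups, while the model mice of the other 6 genes spread to both sides of the controls.

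Krt8 and Krt18, the keratin pair of hepatocytes, were the most abundant of the 9. Krt8 (ENSMUSG00000049382, chromosome 15, 101905133 to 101912917, GRCm39, minus strand) had 98.7 CPM in the lowest control, a median of 115 CPM and 149 CPM in the highest. In model mice Krt8 ran from 199 CPM in mouse 10 through a median of 358 to 553 CPM in mouse 3. The lowest model mouse was thus above the highest control, and the log2 fold change was 1.64 (SE 0.19). Krt18 (ENSMUSG00000023043, chromosome 15, 101936615 to 101940462, plus strand) had 163, 187 and 207 CPM as the lowest, median and highest control values. Its model values were 236, 349 and 505 CPM, with mouse 10 again lowest and mouse 3 highest, and a log2 fold change of 0.99 (SE 0.15). Mouse 10 stood closest to the controls in both genes.

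The balance of the pair also differed between the groups, as the log2 fold changes of 1.64 for Krt8 and 0.99 for Krt18 already imply. It is given as a description. Per kilobase of exon, the ratio of Krt8 to Krt18 was 0.484 ± 0.065 in controls (SD, n = 6) and 0.759 ± 0.0599 in model mice (SD, n = 18). The ratio ran from 0.410 to 0.586 in controls and from 0.619 to 0.870 in model mice, so the groups did not overlap. How often ratios of other gene pairs part the groups was not computed. By the counts assigned to Krt8 itself, Krt18 stayed the more abundant transcript per kilobase in every mouse. The pseudogene Krt8-ps received counts equal to 20.6 ± 0.682% of those of Krt8 in controls and 21.1 ± 1.65% in model mice. How reads of near-identical copies were assigned is not given in the sources used here, and the level of Krt8 is uncertain by that share. The order of Krt8 and Krt18 is therefore not certain in every mouse. In mouse 2 Krt8 was at 275 and Krt18 at 316 CPM per kb, with 119 CPM on Krt8-ps beside 538 CPM on Krt8. With both summed, Krt8 was 146 ± 28.5 CPM in controls and 457 ± 125 CPM in model mice, a log2 ratio of means of 1.65 against 1.64 for Krt8 alone.

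**Figure D2:**
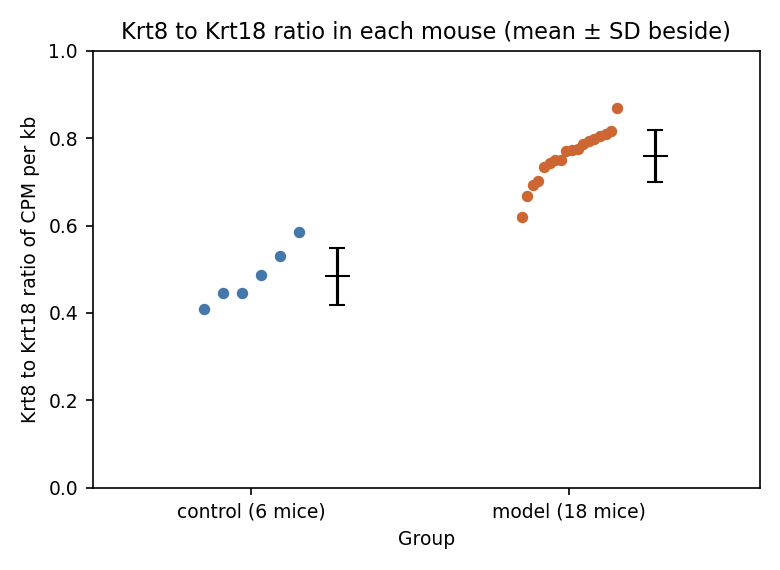
Ratio of Krt8 to Krt18 in CPM per kilobase of exon for each mouse, with the group mean ± SD beside the points (6 control and 18 model mice). All model mice lie above the highest control at 0.586, and no mouse reaches a ratio of 1 with the counts of Krt8-ps left out.

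The windows before the starts of these 2 genes are shown because the genes varied together over the model mice. For 7 of the 9 genes RefSeq gave a promoter (GRCm38.p6); Krt19 and Sox9 are named only. Each window holds the 250 bases before the annotated start, read 5′ to 3′ on the gene's strand. Capitals mark any match, on either strand, to 7 short motifs: GC box GGGCGG, SOX ACAATG, RBPJ GTGGGAA, AP-1 TGANTCA, TEAD GGAATG, the TATA box TATAAA and NF-kB. Of 32851 windows of this length, 32.7% held the GC box, 12.4% the TATA box, 6.75% AP-1, 12.6% TEAD, 10.7% SOX, 5.42% RBPJ and 1.41% NF-kB.
Krt8 (GRCm38.p6, chr15:102004343-102004592, minus strand): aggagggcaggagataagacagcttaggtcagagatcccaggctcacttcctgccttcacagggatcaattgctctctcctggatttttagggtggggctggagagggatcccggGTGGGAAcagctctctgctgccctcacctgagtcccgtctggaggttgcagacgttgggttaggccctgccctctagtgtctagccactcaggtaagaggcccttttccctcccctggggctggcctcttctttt
Krt18 (GRCm38.p6, chr15:102027966-102028215, plus strand): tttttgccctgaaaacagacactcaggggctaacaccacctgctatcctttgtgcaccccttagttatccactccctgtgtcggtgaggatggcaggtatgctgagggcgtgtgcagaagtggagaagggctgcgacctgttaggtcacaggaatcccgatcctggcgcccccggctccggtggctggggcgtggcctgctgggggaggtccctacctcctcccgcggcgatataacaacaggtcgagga
Krt8 had 1 match, to RBPJ, beginning 135 bases before the start, and the Krt18 window had none of the 7. The Krt8 window held 3 CpG and the Krt18 window 12, against a median of 6 over all windows. A match is a string of letters and not a measured binding site.

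Krt23, a type I keratin that is low in normal liver and is known from injured liver, had the highest fold change of the 9. Krt23 (ENSMUSG00000006777, chromosome 11, 99368800 to 99383963, minus strand) had 1.17 CPM in the lowest control, a median of 1.42 and 2.26 CPM in the highest. In model mice it ran from 6.29 CPM in mouse 17 through a median of 11.9 to 34.6 CPM in mouse 10. Even the lowest model mouse was above the highest control, with a log2 fold change of 3.15 (SE 0.31). Mouse 10, lowest for Krt8 and Krt18, was highest for Krt23, and the step of 0.66 log2 units from it down to mouse 7 (21.8 CPM) was the largest gap between neighbouring model mice. Per kilobase of exon, Krt23 moved in rank from the fifth of the 9 genes in controls (0.977 CPM) to the third in model mice (8.69 CPM).
Its promoter window, shown because no other member differed as far, held 1 match to NF-kB beginning 53 bases and 1 to SOX beginning 90 bases before the start.
Krt23 (GRCm38.p6, chr11:99493121-99493370, minus strand): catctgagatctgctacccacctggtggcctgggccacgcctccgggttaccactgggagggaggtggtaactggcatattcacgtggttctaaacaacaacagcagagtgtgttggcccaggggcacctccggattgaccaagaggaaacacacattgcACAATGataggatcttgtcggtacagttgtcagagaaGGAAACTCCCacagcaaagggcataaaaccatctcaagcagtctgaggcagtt

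The keratins of the ducts differed less between the groups than among the model mice. Krt7 (ENSMUSG00000023039, chromosome 15, 101308924 to 101328194, plus strand) had 0.639, 0.821 and 1.59 CPM as the lowest, median and highest control values. Its model values ran from 0.176 CPM in mouse 14 through a median of 1.31 to 4.21 CPM in mouse 16, a 23.9-fold range against 2.48-fold in controls. Of the model mice 6 lay above every control and 7 below every control, and the log2 fold change was 0.48 (SE 0.54). Krt19 (ENSMUSG00000020911, chromosome 11, 100031636 to 100039491, minus strand) had 0.705, 0.922 and 3.14 CPM in controls and 0.205, 1.37 and 3.59 CPM in model mice, by lowest, median and highest value. Mouse 16 alone exceeded every control for Krt19 and 7 model mice were below every control, with a log2 fold change of 0.23 (SE 0.51).

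Control mouse 6 set the upper end of the control range for Krt19. At 3.14 CPM it was far from the next control at 1.14 CPM, and it was also the highest control for Krt7 and for Epcam. The same mouse was the lowest control for Sox9 (2.64 CPM). For Cftr (0.135 CPM) and Cldn4 (0.270 CPM) it lay inside the range of the other controls. Without control mouse 6 the Krt19 log2 fold change was 0.73. That mouse had 32 counts of Ctrb1, a digestive enzyme gene of the pancreas, where no other control had more than 1, while the other 6 pancreas genes listed were at 0 counts in it. Its index of clock genes, -1.71, was below the other controls (1.26 to 3.79) and below all model mice (-1.23 to 0.09). The part of either in its Krt19 level was not tested. Adding that index to the model as a covariate gave a Krt19 log2 fold change of -0.51 and an Epcam log2 fold change of 0.41. Apart from control mouse 6, the index separates all controls from all model mice. In fits with this covariate, here and below, clock and group can therefore hardly be told apart.

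Epcam, Cftr and Cldn4 had higher medians in the model and a spread as wide as that of the duct keratins. Epcam (ENSMUSG00000045394, chromosome 17, 87943407 to 87958557, plus strand) had 1.88, 2.43 and 5.07 CPM in controls and 0.879, 4.76 and 13.9 CPM in model mice. For Epcam 9 model mice were above every control and 5 below, with a log2 fold change of 0.96 (SE 0.52). Cldn4 (ENSMUSG00000047501, chromosome 5, 134973973 to 134975788, minus strand) had 0.129, 0.199 and 0.497 CPM in controls and 0.0546, 0.483 and 1.91 CPM in model mice. Again 9 model mice were above every control and 2 were below, and the log2 fold change was 1.43 (SE 0.66).

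Cftr was the rarest of the 9 and the least precise. Cftr (ENSMUSG00000041301, chromosome 6, 18170686 to 18322767, plus strand) had 1 to 8 counts per control library and 1 to 87 per model library. That gave 0.0322, 0.115 and 0.284 CPM in controls and 0.0273, 0.273 and 1.53 CPM in model mice, with 9 model mice above every control and 1 below. Its log2 fold change was 1.87 (SE 0.73). Cftr was no longer called when control 1, 3, 5 or 6 was left out or with no filter. The same held with limma-voom, with the clock covariate and at a threshold of 0.01. A stricter filter removed Cftr, so it was not tested there.

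Sox9, the duct transcription factor, had nearly equal means in the groups. Sox9 (ENSMUSG00000000567, chromosome 11, 112673050 to 112678586, plus strand) was at 4.14 ± 0.986 CPM in controls (SD, n = 6) and 4.12 ± 1.73 CPM in model mice (SD, n = 18), a log2 fold change of -0.01 (SE 0.25) that is 0.35 with library totals alone. The control values ran from 2.64 to 5.14 CPM and the model values from 1.61 CPM in mouse 12 to 7.27 CPM in mouse 16. Of the model mice 5 were above every control and 4 below, so equal means stood over a wider model range.

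The windows of Krt7 and Cldn4 are shown as 2 duct genes that varied together over the model mice. The Krt7 window held 4 GC boxes, beginning 141, 128, 56 and 24 bases before the start. The Cldn4 window held 2 AP-1 matches, beginning 240 and 158 bases before the start, and a GC box at 44.
Krt7 (GRCm38.p6, chr15:101412153-101412402, plus strand): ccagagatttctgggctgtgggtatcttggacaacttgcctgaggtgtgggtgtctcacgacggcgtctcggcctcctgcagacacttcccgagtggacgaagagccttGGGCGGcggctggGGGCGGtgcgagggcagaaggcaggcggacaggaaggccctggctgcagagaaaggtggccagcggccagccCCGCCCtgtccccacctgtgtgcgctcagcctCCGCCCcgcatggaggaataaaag
Cldn4 (GRCm38.p6, chr5:134946935-134947184, minus strand): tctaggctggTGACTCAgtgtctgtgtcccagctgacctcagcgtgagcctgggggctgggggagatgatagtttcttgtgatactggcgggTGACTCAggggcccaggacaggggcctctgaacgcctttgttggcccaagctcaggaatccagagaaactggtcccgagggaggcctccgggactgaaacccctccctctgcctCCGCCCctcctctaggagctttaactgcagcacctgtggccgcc
Among the duct genes not printed, Cftr had 6 GC boxes, of which 3 overlap, and Epcam had 1. No motif of the 7 was held by all of Krt7, Epcam, Cftr and Cldn4 other than the GC box, which 32.7% of all windows hold.

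Among themselves the model mice were ordered much alike by the 6 duct genes. Of the 18 mice, 8 (mice 2, 4, 9, 13, 15, 16, 17 and 18) were in the upper 9 for every one of Krt7, Krt19, Sox9, Epcam, Cftr and Cldn4. Another 8 (mice 1, 5, 6, 7, 10, 11, 12 and 14) were in the lower 9 for all 6. The SD of log2 CPM over the model mice was 1.33 for Krt7, 1.25 for Krt19, 1.26 for Epcam, 1.37 for Cftr and 1.40 for Cldn4. It was 0.61 for Sox9, 0.57 for Krt23, 0.42 for Krt8 and 0.36 for Krt18, beside a median of 0.21 over the 13193 genes that averaged 1 CPM or more. The counting error of Cftr and Cldn4, with as few as 1 and 2 counts in a library, is part of their spread.

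No single gap parted the mice in all of these genes. The largest step between neighbouring model mice for Krt7 was 0.75 log2 units, between mouse 5 (0.649 CPM) and mouse 6 (1.13 CPM), with 8 mice below it and 10 above. For Cftr it was 0.80, between mouse 3 (0.327 CPM) and mouse 9 (0.607 CPM), with 10 below and 8 above. The largest steps of Krt19, Epcam, Sox9 and Cldn4 set off the 1 or 2 lowest mice, and no gap took more than 27.1% of a gene's log2 range.

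**Figure D3:**
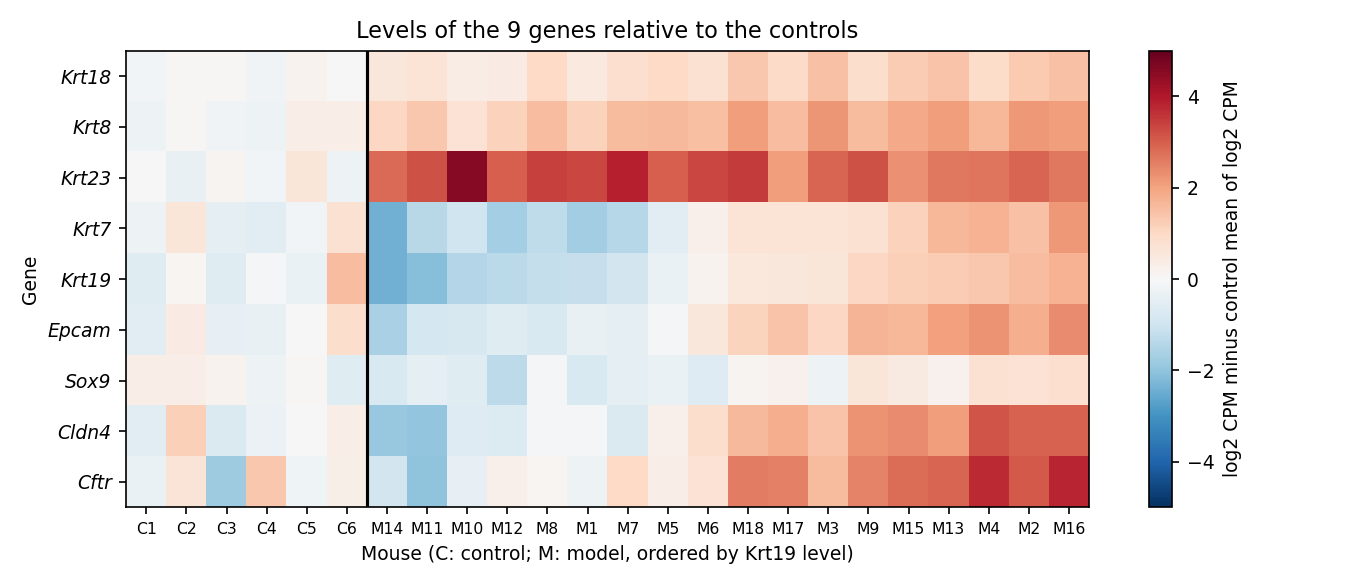
Log2 CPM of the 9 genes in each mouse minus the mean log2 CPM of the 6 controls (red higher, blue lower); controls left of the line, model mice ordered from low to high Krt19. Krt8, Krt18 and Krt23 are red in every model mouse, and the 6 duct genes pass from mostly blue on the left to mostly red on the right, with the smallest changes in Sox9.

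Correlations over the 18 model mice were computed for 10 pairs of genes (log2 CPM, two-sided permutation test with 100000 resamples, adjusted over the 10). The chosen genes were picked with their wide spread over these same mice already known. For pairs among them the permutation p-values, here and within the sets below, therefore cannot serve as tests. They are printed as a description, and no conclusion is drawn from them. Krt8 and Krt18 had a Pearson r of 0.97 and a Spearman rho of 0.94 (permutation p = 1e-05 for each, the smallest the resamples can give, adjusted 2e-05). Krt7 and Krt19 had r = 0.97 and rho = 0.94, Krt19 and Epcam r = 0.98 and rho = 0.98, Krt19 and Cldn4 r = 0.98 and rho = 0.95, and Krt19 and Cftr r = 0.95 and rho = 0.96, with the same permutation p. Krt19 and Sox9 had r = 0.84 and rho = 0.87 (permutation p = 4e-05 and 2e-05, adjusted 6.67e-05 and 3.33e-05). Without the 2 mice farthest from the median in the first gene of a pair these r values were 0.87 to 0.98. Over all 15 pairs of the 6 duct genes r ran from 0.84 to 0.98, and between Krt8 or Krt18 and the duct genes from 0.69 to 0.81.

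By their 2000 most variable genes the model mice fell into a set of 8 (mice 1, 5, 6, 7, 8, 11, 12 and 14), a set of 9 (mice 2, 3, 4, 9, 13, 15, 16, 17 and 18) and mouse 10 alone, a division made after seeing the data. Krt19 was 0.205 to 1.21 CPM in the set of 8 and 1.53 to 3.59 CPM in the set of 9, so each correlation was repeated within the sets. Krt8 and Krt18 had r = 0.90 and rho = 0.86 in the 8 mice (exact permutation p = 0.00409, adjusted 0.0116) and r = 0.94 and rho = 0.83 in the 9 (exact permutation p = 0.0018, adjusted 0.00711). Krt7 and Krt19 had r = 0.88 and 0.90, Krt19 and Epcam 0.94 and 0.89, Krt19 and Cldn4 0.94 and 0.89, and Krt19 and Cftr 0.79 and 0.80, in the 8 and the 9 mice in that order. The largest adjusted exact permutation p of these 8 values was 0.0316. Krt19 and Sox9 had r = 0.17 in the 8 mice (exact permutation p = 0.695, adjusted 0.695) and 0.83 in the 9 (exact permutation p = 0.00673, adjusted 0.0135), a difference that was not tested. High r values among the duct genes, Sox9 apart, were thus also seen inside each set, which is a description only. The duct genes vary widely and may be among the 2000 genes that made the sets, so the sets may not be independent of these values.

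Krt23 did not follow the other genes. Its r over the 18 mice was -0.50 with Krt19 (rho = -0.55, permutation p = 0.0311 and 0.0209, adjusted 0.0345 and 0.0261) and -0.46 with Krt8 (rho = -0.39, permutation p = 0.0559 and 0.115, adjusted the same). With Col1a1, the fibrillar collagen gene of scar tissue, it was -0.68 (rho = -0.51, permutation p = 0.00382 and 0.0336, adjusted 0.00477 and 0.0373). These values rested on few mice. Without mice 10 and 17, the 2 farthest from the Krt23 median, r was -0.46, -0.29 and -0.42 for Krt19, Krt8 and Col1a1 (permutation p = 0.0688, 0.285 and 0.105). Within the sets of 8 and 9 mice it was 0.37 and -0.18 for Krt19, 0.57 and 0.36 for Krt8, and 0.36 and -0.08 for Col1a1, with no adjusted exact permutation p below 0.2. Krt8 and Alb, the albumin gene of hepatocytes, had r = -0.79 and rho = -0.77 (permutation p = 5e-05 and 0.0004, adjusted 7.14e-05 and 0.000571). That r was -0.75 in the 8 mice (exact permutation p = 0.0115, adjusted 0.0231) and -0.35 in the 9 (exact permutation p = 0.385, adjusted 0.482).

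**Figure D4:**
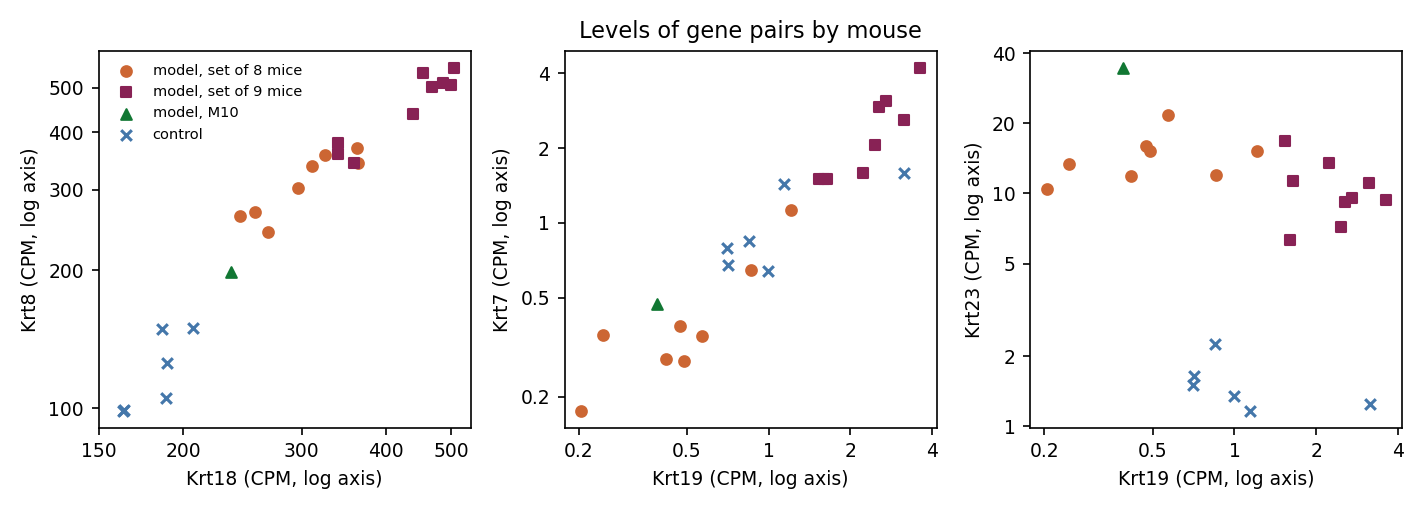
Levels in CPM on log axes for 3 pairs of genes, 1 point per mouse, with crosses for the 6 controls and circles, squares and a triangle for model mice of the set of 8, the set of 9 and mouse 10. Krt8 follows Krt18 and Krt7 follows Krt19 in both sets, while Krt23 against Krt19 shows no such line.

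The genes most alike in pattern were sought among 11555 named genes by Pearson r over the 18 model mice, as a description, since all values share the same libraries. Closest to Epcam were Cd24a, a small surface glycoprotein (r = 0.99), Spint1, an inhibitor of epithelial serine proteases (0.99), and the tetraspanin gene Tspan8 (0.99). Closest to Krt19 were Epcam (0.98), Cd24a (0.98) and Scara3 (0.98), and closest to Krt7 were Epcam (0.98), Cd24a (0.97) and the annexin gene Anxa9 (0.97). Krt8 was matched by its pseudogene Krt8-ps (0.97), by Krt18 (0.97) and by the tubulin gene Tubb6 (0.97). Krt18 was matched by Krt8, by Tubb6 (0.96) and by Tnfrsf12a (0.95), which encodes Fn14, a receptor known from ductular reactions. For Sox9 the closest were Ehf, an epithelial ETS factor (0.93), Osgin2 (0.92) and the protease gene Adamts9 (0.91). The nearest genes to Krt23 were other ones and less close: Gstt2, a glutathione transferase (0.82), Amdhd1, an enzyme of histidine breakdown (0.81), and Zcwpw1 (0.80).

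Per kilobase of exon the order of mean levels in controls was Krt18 (127 CPM per kb), Krt8 (61.9), Epcam (1.33), Sox9 (1.00), Krt23 (0.977), Krt19 (0.678), Krt7 (0.142), Cldn4 (0.132) and Cftr (0.0173). In controls each neighbouring pair from Epcam to Krt19, and Krt7 with Cldn4, overlapped in range. In model mice the order was Krt18 (253), Krt8 (193), Krt23 (8.69), Epcam (2.58), Sox9 (0.996), Krt19 (0.787), Cldn4 (0.362), Krt7 (0.198) and Cftr (0.0629). Neighbours in that order overlapped in range over the mice, except Krt8 and Krt23. Summed exon length counts every annotated exon, which lowers the value per kilobase of genes with many alternative exons.

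Most other keratins had few or no counts. Of 22 further keratin genes, 10 had no count in any library and 2 passed the filter, which leaves too few for a statement on the family. Both are given because they are the only ones tested. Krt80, a type II epithelial keratin, averaged 0.0728 ± 0.0388 CPM in controls and 0.512 ± 0.165 CPM in model mice (edgeR log2 fold change 2.77 ± 0.32 SE, adjusted p = 4.26e-08) and so rose. These levels rest on 1 to 4 counts per control library and 10 to 44 per model library, so the size of the Krt80 change is imprecise. Krt10, a keratin of the epidermis, was 1.79 CPM in controls and 1.63 CPM in model mice (log2 fold change -0.14, adjusted p = 0.347).

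Of 23 tested genes of biliary identity and transport that are not among the 9, 10 were higher and 1 was lower. The median on the log2 scale was 0.61 beside 0.01 over all genes. Over all genes 31.2% were called higher and 28.8% lower, so the counts of this list and those below are not read as results about the lists. Spp1, the osteopontin gene of ducts and macrophages, rose, from a mean of 47.5 ± 15.0 CPM in controls to one of 184 ± 127 CPM in model mice (edgeR 1.96 ± 0.52 SE on the log2 scale, adjusted p = 0.00225). Tspan8 (1.96, SE 0.65, adjusted p = 0.0114) and Elf3, an epithelial ETS factor gene (1.39, SE 0.36, adjusted p = 0.00154), also rose. Not every model mouse was higher. For Spp1 13 model mice were above every control and 2 below, from 34.7 CPM in mouse 14 to 403 CPM in mouse 16. For Tspan8 10 were above and 1 below, from 0.732 CPM in mouse 14 to 15.3 CPM in mouse 4. Under the clock covariate, which nearly follows the group, none of Spp1, Tspan8 and Elf3 passed (adjusted p = 0.11, 0.167 and 0.222). With the clock covariate 2 genes of the list were higher and 1 lower. The Tspan8 log2 fold change with limma-voom was 1.49 (adjusted p = 0.104). The transcription factor genes Onecut1 (0.61, adjusted p = 0.142) and Onecut2 (0.13, adjusted p = 0.287) did not pass.

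Among 17 tested genes of ductular reaction and progenitor signals 9 were higher and 2 lower, beside 31.2% and 28.8% of all genes, with a median of 0.76. The largest changes in the list among genes of at least 1 CPM were those of Afp, the fetal liver gene alpha-fetoprotein (1.27, SE 0.21, adjusted p = 1.07e-05), Ccn1, a matricellular protein gene and YAP target (1.25, SE 0.14, adjusted p = 3.85e-08), and Tnfsf12, which encodes TWEAK, the ligand of Fn14 (1.14, SE 0.18, adjusted p = 3.86e-06). Its receptor gene Tnfrsf12a did not pass (0.47, adjusted p = 0.125), though it tracked Krt18 over the model mice. Yap1 (-0.12) and Notch2 (-0.18) were called lower and had values of 0.21 and 0.15 with library totals alone. With the clock covariate 4 genes were higher and none lower.

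Of 15 genes of keratin partners, desmosomes and Mallory-Denk bodies, 7 rose and 2 fell, beside 31.2% and 28.8% of all genes, with a median of 0.11. Tgm2, a transglutaminase that can crosslink keratins, rose, from 65.7 ± 12.3 CPM in controls to 182 ± 37.4 CPM in model mice (1.47, SE 0.15, adjusted p = 4.94e-09). Ppl, the periplakin gene (1.11, SE 0.20, adjusted p = 3.35e-05), and Pkp3, a desmosomal plakophilin gene (0.97, SE 0.22, adjusted p = 0.0005), also rose, Pkp3 not under the clock covariate (adjusted p = 0.0509). Sqstm1, which encodes p62, a protein of Mallory-Denk bodies, was 607 CPM in controls and 797 CPM in model mice (0.39, adjusted p = 0.000991). The desmosome genes Dsp (0.11), Jup (0.09) and Pkp2 (0.02) and the plectin gene Plec (0.03) did not pass. The 2 that fell, Dsg2 (-0.22) and Hsp90aa1 (-0.38), were 0.12 and -0.06 with library totals alone.

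Tight junction genes other than Cldn4 gave 1 higher and 5 lower of 16 tested, beside 31.2% and 28.8% of all genes, and a median of -0.05. Cldn2, a claudin that forms ion pores, rose (0.88, SE 0.13, adjusted p = 2.51e-06), while Marveld3 (-1.88, SE 0.22, adjusted p = 6.12e-08) and Ocln (-0.60, SE 0.11, adjusted p = 2.89e-05), genes of 2 occludin family proteins, fell. With library totals alone the list had 7 higher and 2 lower, the 2 being Marveld3 and Ocln. Of 8 other SOX factor genes 3 rose and 3 fell: Sox4 was among those that rose (1.86, SE 0.43, adjusted p = 0.000569), and Sox12 (-2.06, SE 0.22, adjusted p = 2.17e-08) and Sox6 (-0.31, SE 0.06, adjusted p = 0.000143) among those that fell. The Sox6 value was 0.02 with library totals alone. Sox4 and Sox12 are closely related members of the same subgroup.

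**Figure D5:**
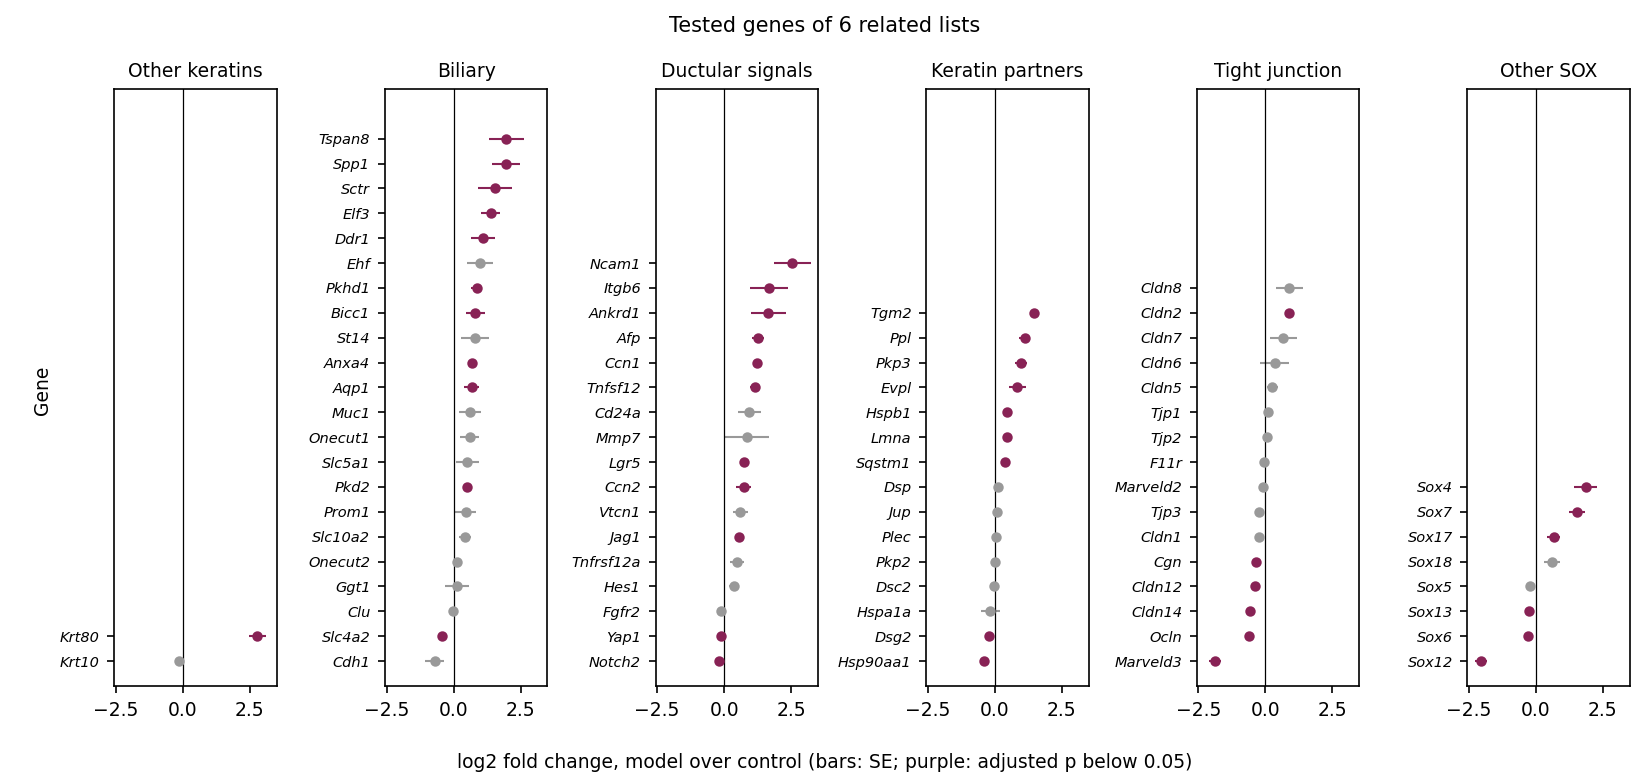
Log2 fold change of model over control (edgeR, bars are SE) for tested genes of 6 related lists (all but 1 of the biliary list), purple where the adjusted p was below 0.05 and grey otherwise. Krt80, Spp1, Tspan8 and Sox4 lie to the right, Sox12 and Marveld3 to the left, and most desmosome and tight junction genes near 0.

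Markers of other cells that could carry these transcripts were read in the same libraries. Mesothelial cells, which cover the liver and also express Krt7, Krt8, Krt18 and Krt19, have 7 listed markers, whose sum was 1.59 to 5.22 CPM in controls and 1.07 to 5.18 CPM in model mice. Of the 4 tested, Msln (-2.15, adjusted p = 0.000977) and Upk3b (-2.08, adjusted p = 0.000256) were lower in the model while Wt1 (0.93, adjusted p = 0.0612) and Gpm6a (0.72, adjusted p = 0.0652) did not pass. The sum of 8 gallbladder and intestine genes was 41.5 to 72.7 CPM in controls and 73.8 to 120 CPM in model mice. Of these genes 3 were tested and 1 was higher, Fabp2, while Vil1 and Lgals4 did not pass. Tff2 and Muc13, not tested, reached 28 and 11 counts in a model library. For Tff2 7 model mice were above every control and 3 below, and for Muc13 9 were above and 0 below. Cdx2 and Muc5b had at most 1 count in any library. The 7 pancreas genes summed to at most 0.218 CPM in model mice, and Amy2a5 and Ins2 were at 0 in all 24. All 6 hepatocyte markers were lower in the model. Their sum ran from 112200 to 175326 CPM in controls and from 52892 to 110479 CPM in model mice. Alb made up most of that sum, with a mean of 113726 CPM in controls and 61861 CPM in model mice. The smallest change of the 6 was that of Ttr (edgeR -0.29, adjusted p = 0.0261). Library totals alone shift the middle of all genes from 0.01 to 0.34 log2 units, so the Ttr call may depend on scaling. All 6 macrophage, 6 stellate cell and 6 T and B cell markers and 4 of 5 endothelial markers were higher. Over all genes 31.2% were called higher and 28.8% lower, and with library totals alone 9406 were higher and 1562 lower. The counts of called markers are therefore not read as results about the cell types. The macrophage sum was 49.1 to 123 CPM in controls and 269 to 972 CPM in model mice. The part of these shifts in cell markers in the levels of the 9 genes was not tested.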

How the data were processed

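Messenger RNA from the livers of 24 mice (6 control, 18 model) was captured on oligo(dT) and sequenced as DNA nanoballs, per the labels' protocols. The table deposited by the authors holds raw counts per Ensembl gene, with exon positions and summed exon length, per the file headers. Another deposited column, Length, is a whole number of bases (equal to the summed exon span for all 78298 genes) and was used for levels per kilobase. The build is GRCm39, per the submitters' processing notes. Aligner, counter, annotation release and strand setting: not given in the sources used here. Without a stated strand setting, reads of a gene and an antisense neighbour cannot be told apart.

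Symbols came from a table of an earlier annotation (51498 IDs matched, 99.6% of counts). Of IDs that shared a symbol (58 symbols), the most counted one was used. Groups came from the labels. The test was edgeR 4.0.16 (R 4.3.3), quasi-likelihood F test, robust, TMM factors, default expression filter by group, all 24 libraries, group as the only term, Benjamini-Hochberg adjusted p below 0.05. Each SE is the size of the log2 fold change divided by root F. CPM was computed on totals scaled by TMM, and log2 CPM with a prior count of 2. Totals of 31600129 to 58413267 counts make 3 counts worth 0.0514 to 0.0949 CPM before TMM scaling, and error covers counting only. Alternatives were RLE (as in DESeq2) and upper-quartile factors, library totals, DESeq2 1.42.0, limma-voom (limma 3.58.1), 2 other filters, a threshold of 0.01, the replicate number as a block, a clock gene index as a covariate, and each library left out. Correlations used Python 3.11.15 with scipy 1.17.1, exact where n was under 10. The test was also run on simulated counts of 17162 genes in this comparison. It recovered 82 of 100 genes set to differ 2-fold and 60 of 100 set to differ 1.5-fold. Of its 151 calls 9 were false. The simulated differences were few and evenly up and down, so these figures do not cover the dependence on scaling seen in the data. The members and lists were chosen with earlier results of these data known. In each related list the 3 called genes of largest change with a mean of at least 1 CPM were named, and for each member of at least 1 CPM the 3 genes most alike; other genes were named after their values were seen. The values of 1 gene of the biliary list are not reported here. Each pair of libraries within a group differed by more than sampling noise (smallest chi-square per degree of freedom 17.0 over 168 pairs). The labels do not say whether mice were raised apart, so p-values measure the spread between these samples.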

Additional observations from a re-analysis of the deposited data

Results flagged for a closer look

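Krt19 in control mouse 6, at 3.14 CPM, stood apart from the other 5 controls, of which the highest was 1.14 CPM. The gap took 0.821 of the range of the 6 controls; this is past Dixon's 95% limit. Chance flags about 1 in 20 groups, and 24 genes were checked in this way.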

How the results depend on the processing

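The calls of the 9 genes describe the contrast they were chosen on and are no evidence of stability. Of the 9 genes 3 were called with limma-voom, no filter, a filter of 1 CPM in 6 libraries, the clock covariate and a threshold of 0.01. The filter of 1 CPM in 6 libraries left Cftr untested. There were 5 called with DESeq2 and 6 with library totals, against 4, and 3 to 5 with 1 library left out. Leave-one-out log2 fold changes were 1.59 to 1.71 for Krt8, 0.95 to 1.02 for Krt18, 3.01 to 3.29 for Krt23, 0.30 to 0.65 for Krt7, 0.10 to 0.73 for Krt19, -0.12 to 0.06 for Sox9, 0.83 to 1.18 for Epcam, 1.67 to 2.18 for Cftr and 1.24 to 1.81 for Cldn4. Calls over all genes were 5445 higher and 5035 lower, and 9406 and 1562 with library totals; left-out libraries gave 5198 to 5474 and 4787 to 5175.

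Called genes of related lists moved as follows. Other keratins: 1 called, 4 with no filter and 0 with 1 CPM in 6 libraries, because other genes were tested. Biliary: 11 called, 7 with limma-voom, 3 with the clock covariate, 6 at a threshold of 0.01. Ductular signals: 11 called, 7 with no filter, 6 with 1 CPM in 6 libraries, 4 with the clock covariate, 6 at 0.01, and 7 without control 3 or control 5. Keratin partners: 9 called, 5 with the clock covariate. With 1 library left out the counts were 8 to 11, 7 to 12 and 7 to 10 for the last 3, 6 to 8 for tight junctions, 4 to 7 for SOX and 1 for keratins. The causes were not tested. The Sox6 log2 fold change turned to 0.022 with library totals.

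The Krt23 correlations depended most on settings. Krt23 with Krt19 was -0.44 with library totals, -0.46 without the 2 farthest mice, -0.45 without mouse 10 (the 17 mice), 0.37 in the set of 8 and -0.18 in the set of 9; left-out mice gave -0.61 to -0.45. Krt23 with Col1a1 was -0.42, -0.38, 0.36 and -0.076 in the last 4 of these (left-out mice -0.74 to -0.38). Krt23 with Krt8 was 0.57 and 0.36 in the sets (left-out mice -0.54 to -0.20). Krt19 with Sox9 was 0.17 in the set of 8, and Krt8 with Alb -0.35 in the set of 9.

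The labels do not say whether the numbers of the mice pair them. Same-numbered mice correlated at -0.29 to 0.07, and 1 of 6 controls was nearest to its own number. This check cannot exclude pairing, since paired mice need not have correlated profiles. With the replicate number as a block 4427 genes were higher and 3378 lower, and 5 of the 9 genes were called. Numbers above 6 occur only among model mice, so those libraries added nothing to the group difference in that fit. Its lower counts over all genes therefore cannot be told apart from the use of fewer model mice.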
